A study of Rattus norvegicus with 6 samples.

Results

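The fatty acid desaturases and elongases of the endoplasmic reticulum were described in fibrotic rat liver. Of 10 genes named by symbol (Fads1, Fads2, Fads3, Scd, Scd2, Elovl1, Elovl2, Elovl3, Elovl5 and Elovl6), 8 were matched to a row of the 16209-row table, and Elovl3 and Elovl6 were not analysed here. All 8 passed the filter on low values, with at least 34 reads in each library. The genes were chosen by name with their log2 differences between ginkgetin and vehicle in view, so those differences are given as a description of these libraries and not as a test. RNA was sequenced from liver tissue of fibrotic rats, of which 3 samples came from treatment with ginkgetin, a biflavone found in Ginkgo leaves, dosed at 10 mg/kg/day, and 3 from vehicle, to ask what ginkgetin does in liver fibrosis. Both groups share the fibrosis, and the labels give neither its inducing agent nor the strain, age or duration of treatment, nor whether each sample came from a separate animal. The columns taken as vehicle carry the letters TAA, which the labels do not use, so every direction rests on that assignment.

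Desaturases put double bonds into fatty acyl chains and elongases lengthen the chains by adding malonyl-CoA units. In liver, stearoyl-CoA desaturase turns saturated into monounsaturated fatty acids. The front-end desaturases Fads1 and Fads2 and the elongases Elovl2 and Elovl5 turn the essential fatty acids linoleic and alpha-linolenic acid into arachidonic and docosahexaenoic acid. Many of these genes are known targets of the transcription factor SREBP-1c and of the liver X receptors, and polyunsaturated products repress them.

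Reads assigned to genes ranged from 13735802 to 14933853 in ginkgetin libraries and from 13372367 to 14150827 in vehicle libraries. Vehicle replicate 3 stood apart: its 14 hepatocyte markers, all detected, summed to 338274 normalized reads, against 1680320 to 2603030 in the ginkgetin libraries and 2099210 and 1292490 in vehicle replicates 1 and 2. Its 8 stellate cell and myofibroblast markers summed to 119990, against 3138 to 6051 with ginkgetin and 11409 and 13915 in vehicle replicates 1 and 2. In vehicle replicate 3, Alb made 238603 of the hepatocyte sum, and Col3a1 made 76088 and Col1a1 32623 of the stellate cell sum. The log2 differences of the 8 genes and of the named pathway genes are therefore also given without vehicle replicate 3. In bulk tissue, fewer cells of a type and less RNA per cell cannot be told apart.

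Fads1, Fads2 and Elovl2, which act in the synthesis of polyunsaturated fatty acids, were higher in each ginkgetin library than in any vehicle library. The group means differed by a factor of 4.17, 6.58 and 2.84 on the log2(value + 1) scale. Scd2 was lower in each ginkgetin library than in any vehicle library. Of all genes tested, 11.4% were higher and 16.1% lower in this way, without overlap. The Elovl5 and Scd means were higher with ginkgetin, but their groups overlapped, and Fads3 and Elovl1 also overlapped. The range of Scd within the ginkgetin group was 44.5-fold. None of the 8 differences passed the limma threshold over all 6 libraries.

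**Figure D1:**
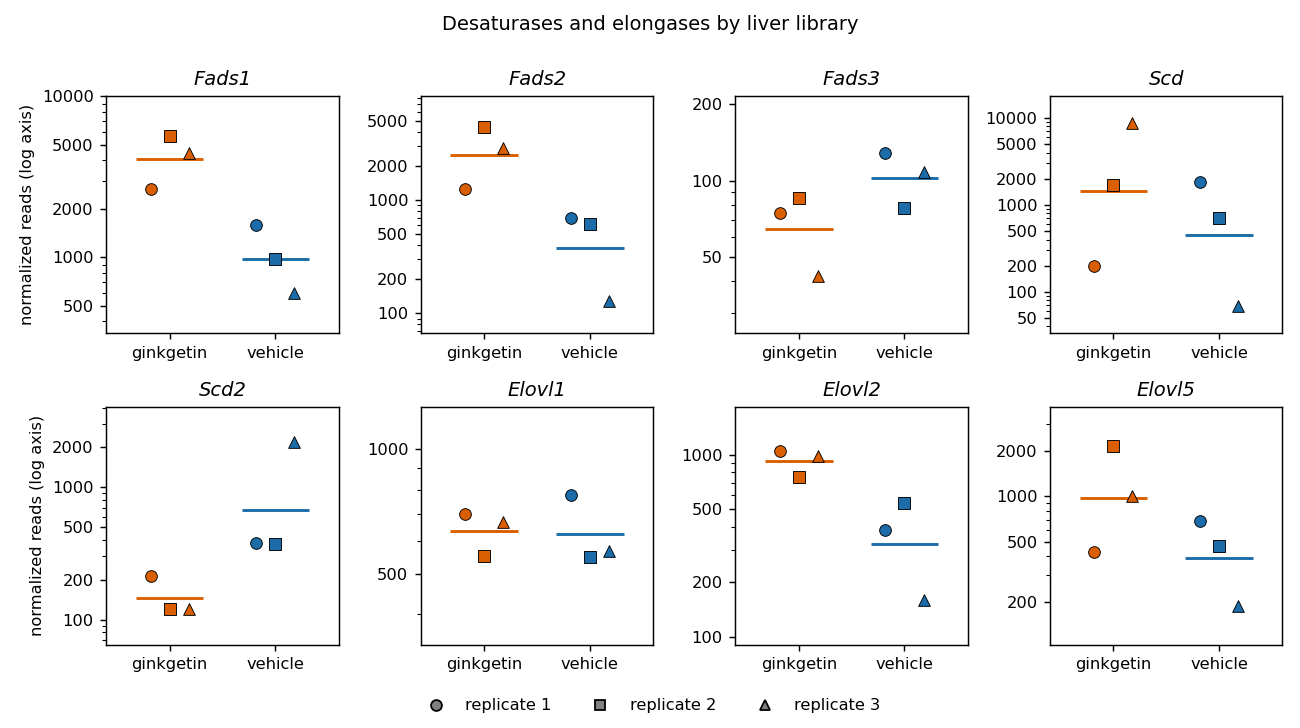
Normalized reads (log axis) of the 8 genes in each of the 3 ginkgetin and 3 vehicle liver libraries; symbols mark the replicate and bars are group means on the log2(value + 1) scale. For Fads1, Fads2 and Elovl2 all ginkgetin points lie above all vehicle points, for Scd2 all lie below, and for Scd the ginkgetin points run from 199 to 8855.

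Fads1 makes arachidonic and eicosapentaenoic acid by the last desaturation before them. It had 2664, 5652 and 4481 normalized reads in ginkgetin replicates 1 to 3, against 1584, 971 and 604 in vehicle replicates 1 to 3. The groups did not overlap, and they averaged 4266 ± 1505 with ginkgetin and 1053 ± 495 with vehicle (SD, n = 3 each). The log2 difference, ginkgetin minus vehicle, was 2.06 (SE 0.441), and 1.71 (SE 0.362) without vehicle replicate 3.

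Fads2 catalyses the first desaturation of linoleic and alpha-linolenic acid. It had 1250, 4365 and 2905 normalized reads in ginkgetin replicates 1 to 3, against 701, 615 and 128 in vehicle replicates 1 to 3. Again the groups did not overlap, and vehicle replicate 3 lay 5.15-fold under the mean of vehicle replicates 1 and 2. The log2 difference was 2.72 (SE 0.698), and 1.93 (SE 0.456) without vehicle replicate 3. Fads1 and Fads2 shared the order of their libraries, with ginkgetin replicate 2 highest and replicate 1 lowest, and vehicle replicate 1 highest and replicate 3 lowest.

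Fads3, the neighbour of Fads2 in the RefSeq table and a desaturase of sphingoid bases in human and mouse cells, did not share this pattern. It had 74.1, 85.6 and 42.1 normalized reads in ginkgetin libraries, against 128, 78.2 and 108 in vehicle libraries. Ginkgetin replicate 2 lay above vehicle replicate 2, so the groups overlapped. The log2 difference was -0.66 (SE 0.391), and -0.63 (SE 0.429) without vehicle replicate 3. The ratio of Fads2 to Fads3 reads within a library, which library scaling cannot change, was 16.9, 51.0 and 69.1 with ginkgetin, against 5.47, 7.86 and 1.18 with vehicle. That ratio did not overlap between the groups. Fads2 alone did not overlap and the Fads3 mean leaned the other way, so the ratio is not a separate result. How many pairs of genes have such a ratio was not counted. The 3 genes lie next to each other in the order Fads3, Fads2, Fads1 on rat chromosome 1 of the GRCr8 assembly. The ratio of Fads1 to Fads2 was 2.13, 1.29 and 1.54 with ginkgetin, against 2.26, 1.58 and 4.73 with vehicle. These ratios overlapped between the groups, and vehicle replicate 3, the lowest library in Fads2, had the highest ratio.

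Upstream sequences are shown for 3 genes whose libraries stood in the same order (Fads1, Fads2 and Elovl5) and for the paralogs Scd and Scd2. The Scd and Scd2 means differed in opposite directions, but the groups of Scd overlapped. These genes were picked by their values, and how many of all genes shared that order was not counted. The sequences are the 250 bases before the annotated start in RefSeq on the GRCr8 assembly, which is not the build named for these files. They were read 5′ to 3′ on the strand of the gene. Capitals mark CCAAT, the box bound by NF-Y, on either strand (ATTGG on the other), and the E-box CACGTG.
Fads1 (GRCr8 chr1:216252442-216252691, plus strand): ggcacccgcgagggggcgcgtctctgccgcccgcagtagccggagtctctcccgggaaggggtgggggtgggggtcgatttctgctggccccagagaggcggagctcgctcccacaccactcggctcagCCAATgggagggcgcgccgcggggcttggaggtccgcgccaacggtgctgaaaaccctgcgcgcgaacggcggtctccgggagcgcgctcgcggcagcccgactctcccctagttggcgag
Fads2 (GRCr8 chr1:216172034-216172283, minus strand): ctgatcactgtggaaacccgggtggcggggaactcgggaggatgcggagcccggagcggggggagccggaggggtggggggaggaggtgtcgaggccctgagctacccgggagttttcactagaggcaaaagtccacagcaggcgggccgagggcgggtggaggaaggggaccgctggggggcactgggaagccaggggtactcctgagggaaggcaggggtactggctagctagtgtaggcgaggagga
Elovl5 (GRCr8 chr8:87670914-87671163, plus strand): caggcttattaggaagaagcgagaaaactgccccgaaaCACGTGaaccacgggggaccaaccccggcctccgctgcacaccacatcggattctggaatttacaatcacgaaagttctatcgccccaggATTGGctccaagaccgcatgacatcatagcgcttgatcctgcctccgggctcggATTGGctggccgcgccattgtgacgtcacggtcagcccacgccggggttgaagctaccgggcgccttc
Scd (GRCr8 chr1:253231732-253231981, minus strand): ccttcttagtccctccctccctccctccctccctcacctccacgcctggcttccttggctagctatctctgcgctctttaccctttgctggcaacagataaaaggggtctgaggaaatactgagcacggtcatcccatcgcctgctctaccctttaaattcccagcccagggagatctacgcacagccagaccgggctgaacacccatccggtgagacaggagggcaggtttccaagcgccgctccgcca
Scd2 (GRCr8 chr1:253118127-253118376, plus strand): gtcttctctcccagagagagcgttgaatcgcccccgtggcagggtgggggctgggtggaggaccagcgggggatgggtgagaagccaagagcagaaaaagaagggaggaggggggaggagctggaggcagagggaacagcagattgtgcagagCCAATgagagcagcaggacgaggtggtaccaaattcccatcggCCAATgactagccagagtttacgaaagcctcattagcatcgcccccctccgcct

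The CCAAT box was found once before Fads1, at 121 to 117 bases before the start, and not before its neighbour Fads2. Fads3, whose sequence is not shown, held it at 204 to 200 and, on the minus strand, at 176 to 172. Elovl5 held an E-box at 212 to 207 and CCAAT boxes on the minus strand at 122 to 118 and 68 to 64. Scd2 held CCAAT boxes at 97 to 93 and 54 to 50, and Scd none. Of the 8 genes, 4 held CCAAT and 1 the E-box. Among 33469 RefSeq promoter windows of this length, 34.0% held CCAAT and 5.59% the E-box. The sterol response element TCACNCCAC was in 0.974% of the windows and the liver X receptor repeat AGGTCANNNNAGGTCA in 1 window, and both were in 0 of the 8 genes, with both strands searched for all motifs. A missing match says only that these letters are not in the window, and a match is not a binding site.

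Scd encodes the main stearoyl-CoA desaturase of adult liver, which makes oleic and palmitoleic acid. It had 199, 1694 and 8855 normalized reads in ginkgetin replicates 1 to 3, against 1849, 716 and 68.1 in vehicle replicates 1 to 3. Ginkgetin replicate 3 was the highest library and vehicle replicate 3 the lowest, while ginkgetin replicate 1 lay under vehicle replicates 1 and 2. Of 7319 tested genes with a mean above the median, 2 had a larger SD of log2 values among the ginkgetin libraries and 29 a larger one among the vehicle libraries. The log2 difference of 1.68 (SE 1.5) was close to its SE, and it was 0.32 (SE 1.98) without vehicle replicate 3, 0.37 without ginkgetin replicate 3 and 3.10 without ginkgetin replicate 1.

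Scd2, in the mouse the form of brain and of newborn liver, ran the other way. It had 212, 120 and 120 normalized reads in ginkgetin libraries, against 378, 374 and 2190 in vehicle libraries. The groups did not overlap, and vehicle replicate 3 lay 5.82-fold over the mean of vehicle replicates 1 and 2. The log2 difference was -2.21 (SE 0.653), and -1.37 (SE 0.306) without vehicle replicate 3. Scd and Scd2 are close paralogs, and how reads that fit both were assigned is not given in the sources used here. The ratio of Scd to Scd2 reads was 0.938, 14.1 and 73.8 with ginkgetin, against 4.89, 1.91 and 0.0311 with vehicle. Its groups overlapped, and it spanned the widest range of the ratios plotted, from vehicle replicate 3 to ginkgetin replicate 3.

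Cholangiocyte, lymphocyte and cell cycle markers and all but 1 of the stellate cell markers had lower means over all 6 libraries, like Scd2. Macrophage and endothelial markers were mixed. Of 8 stellate cell and myofibroblast markers 7 had lower means with ginkgetin, and the sum of the 8 was 3138 to 6051 normalized reads with ginkgetin and 11409 to 119990 with vehicle. Acta2 was among the lower ones at a log2 difference of -0.35, but lay at 0.83 without vehicle replicate 3. Lrat, the 1 with a higher mean, lay at 0.92, and at 1.54 without that library. All 8 cholangiocyte markers had lower means, with sums of 319 to 784 with ginkgetin and 2049 to 21056 with vehicle. Of the 21056 in vehicle replicate 3, 18034 came from Spp1 alone, which had 612 and 372 in vehicle replicates 1 and 2. Macrophage and Kupffer cell markers summed to 3009 to 5774 with ginkgetin and 2083 to 22647 with vehicle, so the sums overlapped. Of the 22647 in vehicle replicate 3, 16728 came from Gpnmb alone. Lower means were seen for 4 of 7, while Marco, Clec4f and Cd163 had higher ones. None of these 3 lists had a marker at 0 in all libraries, and Trem2 of the macrophage list was at 0 in ginkgetin replicates 2 and 3. The 5 lymphocyte markers, all with lower means, summed to 338 to 648 with ginkgetin and 624 to 1107 with vehicle. The 4 endothelial markers found summed to 1941 to 2821 with ginkgetin and 1537 to 2497 with vehicle, with 3 of 4 higher, and these sums overlapped as well. The 4 cell cycle genes, all with lower means, summed to 108 to 350 with ginkgetin and 345 to 2015 with vehicle. Of the adipocyte list 2 of 4 were found, and Adipoq, its defining hormone, was at most 2.31 normalized reads in any library. Cfd, the other one found, had 718, 268 and 371 with ginkgetin, against 486, 222 and 1392 with vehicle, and was highest in vehicle replicate 3, as Scd2 was. The median log2 difference was -3.33 for the cholangiocyte list and -2.46 for the stellate cell list over all 6 libraries, and -3.06 and -1.53 without vehicle replicate 3. The part of these cells in the Scd2 difference was not tested.

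**Figure D2:**
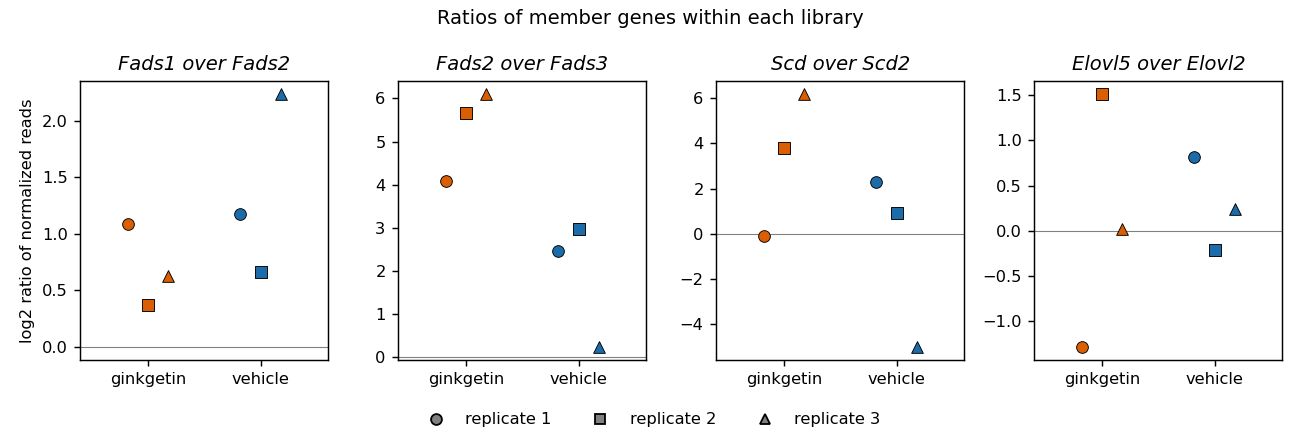
Log2 ratios of normalized reads between pairs of member genes within each ginkgetin and vehicle library; symbols mark the replicate. The Fads2 to Fads3 ratios of the ginkgetin libraries (16.9 to 69.1 before logs) lie above all vehicle ratios (1.18 to 7.86), and the other 3 ratios overlap between groups.

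Elovl2 lengthens polyunsaturated acids on the way to docosahexaenoic acid. It had 1039, 754 and 987 normalized reads in ginkgetin libraries, against 388, 541 and 160 in vehicle libraries. The groups did not overlap, and the ginkgetin libraries differed from each other by a factor of 1.38. The log2 difference was 1.51 (SE 0.425), and 1.0 (SE 0.244) without vehicle replicate 3.

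Elovl5 lengthens the polyunsaturated acids that Fads2 makes. It had 428, 2153 and 1001 normalized reads in ginkgetin libraries, against 681, 468 and 189 in vehicle libraries. Ginkgetin replicate 1 lay under vehicle replicates 1 and 2, so the groups overlapped. The order of the libraries was that of Fads1 and Fads2 in both groups, and it differed from that of Elovl2, which was highest in ginkgetin replicate 1. The log2 difference was 1.31 (SE 0.638), and 0.78 (SE 0.611) without vehicle replicate 3. It ran from 0.74 without ginkgetin replicate 2 to 1.90 without ginkgetin replicate 1. The ratio of Elovl5 to Elovl2 reads was 0.412, 2.85 and 1.01 with ginkgetin, against 1.76, 0.866 and 1.18 with vehicle, so the ginkgetin libraries held both the lowest and the highest ratio.

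Elovl1, which makes the very long saturated and monounsaturated chains of sphingolipids, was the steadiest of the 8. It had 698, 553 and 668 normalized reads in ginkgetin libraries, against 778, 551 and 567 in vehicle libraries. The groups overlapped, with a log2 difference of 0.03 (SE 0.233). That sign is not fixed: it was -0.04 without vehicle replicate 3, -0.10 with quantile scaling and -0.49 with equal library totals.

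**Figure D3:**
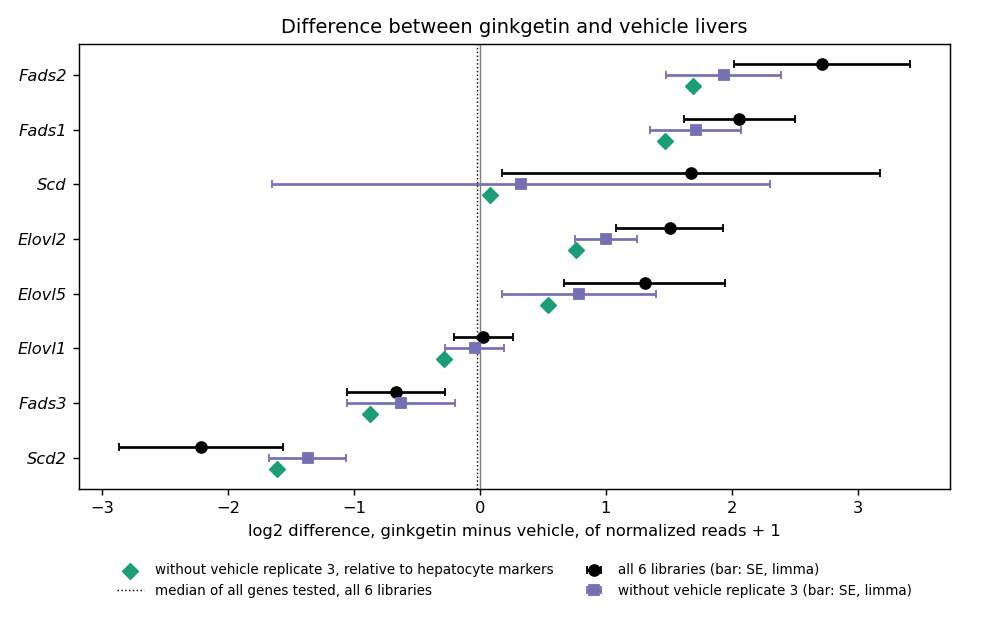
Log2 differences, ginkgetin minus vehicle, of the 8 genes over all 6 libraries, without vehicle replicate 3, and without it relative to hepatocyte markers; bars are SE from limma and the dotted line is the median of all genes tested. Fads2 (2.72 over all 6 libraries), Fads1 (2.06), Scd (1.68), Elovl2 (1.51) and Elovl5 (1.31) stay above 0 in all 3 settings. Scd2 (-2.21) and Fads3 (-0.66) stay below 0, and only Elovl1 (0.03) changes sign.

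Over the 8 genes, 6 had a higher mean with ginkgetin, where 48.6% of the 14639 genes tested did, and 5 without vehicle replicate 3, where 49.0% did; Elovl1 made the difference. Their median log2 difference was 1.41, against -0.02 over all genes tested, and 0.55 against -0.01 without vehicle replicate 3. No overlap between groups was seen for 3 genes on the higher side and 1 on the lower side, where 11.4% and 16.1% of genes tested showed it. Without vehicle replicate 3 these were the same counts, against 14.5% and 19.3%. The list was chosen with this contrast in view, so nothing is read from these counts.

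In the fit across all genes with limma, 0 of the 8 genes passed a Benjamini-Hochberg adjusted p of 0.05 (0.0137% of genes tested did), and adjusted p ran from 0.092 for Fads1 to 0.953 for Elovl1. At an unadjusted p under 0.05 there were 4 (20.2% of genes tested). With edgeR on recovered reads 0 passed (0.0% of genes tested) and 4 had an unadjusted p under 0.05 (19.9%), and with DESeq2 4 passed (9.62%), namely Fads1, Fads2, Elovl2 and Scd2. Without vehicle replicate 3, limma passed 0 (0.574%) with 4 at an unadjusted p under 0.05 (15.7%), edgeR passed 0 (1.36%) and DESeq2 passed 4 (5.44%). Without vehicle replicate 1, Fads1 and Fads2 passed in limma (4.75% of genes tested did), with adjusted p of 0.0324 and 0.0484. With any other single library left out, 0 of the 8 passed in limma. The limma adjusted p of Fads1 was then 0.119, 0.288 and 0.289 without ginkgetin replicates 1 to 3. It was 0.266 without vehicle replicate 2.

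Hepatocyte markers also had higher means with ginkgetin, but their median level overlapped between the groups. All 14 had higher means over all 6 libraries, at a median log2 difference of 1.20. Without vehicle replicate 3 the median was 0.47, and Tat alone turned negative (-0.04). Relative to the mean of the 6 libraries, the median log2 level of the 14 markers lay at 0.49, 0.48 and 0.93 with ginkgetin. It lay at 0.53, 0.25 and -2.68 with vehicle, so ginkgetin replicates 1 and 2 were under vehicle replicate 1. Set relative to these markers without vehicle replicate 3, the log2 difference was 1.47 for Fads1, 1.69 for Fads2, 0.76 for Elovl2, 0.54 for Elovl5, 0.08 for Scd and -1.61 for Scd2. With all 6 libraries it was 0.80 for Fads1, 1.46 for Fads2, 0.24 for Elovl2, 0.05 for Elovl5, 0.41 for Scd and -3.48 for Scd2. Fads3 lay at -0.87 and Elovl1 at -0.28 without vehicle replicate 3, and at -1.93 and -1.24 with all 6 libraries. The median over all genes tested, set relative to these markers, was -0.25 without that library and -1.29 with all 6. In this fit 0 of the 8 genes passed in limma with all 6 libraries (0.71% of genes tested did), at an adjusted p of 0.602 for Fads1, 0.547 for Fads2 and 0.121 for Scd2. Without vehicle replicate 3, 3 passed (5.8%), at an adjusted p of 0.00103 for Fads1, 5.99e-05 for Fads2 and 0.00454 for Scd2.

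The rest of the pathway was read from 7 lists, of which 51 of 55 genes were found and 49 tested. In limma 0 passed at an adjusted p of 0.05 (0.0137% of genes tested did). At an unadjusted p under 0.05 there were 10 higher and 4 lower of 49, beside 20.2% of all genes tested in either direction. A higher mean was seen in 39 of 49, beside 48.6% of all genes tested, and in 33 of 49 without vehicle replicate 3, beside 49.0%. All 14 hepatocyte markers had higher means too. Set relative to these markers with all 6 libraries, signs differed among genes named below. Insig2 lay at 1.52 and Rxra at 0.60, but Hsd17b12 at -0.26, Acss2 at -0.51 and Acly at -0.67. Without vehicle replicate 3 these 5 lay at 1.88, 1.55, 0.68, 0.50 and 0.33. DESeq2 passed 5 of 49, close to the 9.62% of all genes, and edgeR passed 0. Of the genes named by rule below, Rxra, Insig2, Soat2 and Abcd2 passed in limma without vehicle replicate 1 (4.75% of all genes did). Rxra, Insig2 and Soat2 did not pass in limma with any other single library left out. Without hepatocyte centring, the median log2 difference of the 49 was 0.64, and 0.28 without vehicle replicate 3, against -0.02 and -0.01 over all genes tested.

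Among 12 regulators, 11 had higher means with ginkgetin, at a median log2 difference of 0.60 and 0.28 without vehicle replicate 3. Insig2, which holds the SREBP escort protein Scap in the endoplasmic reticulum, had 4839, 5112 and 4148 normalized reads with ginkgetin, against 2038, 566 and 271 with vehicle. The groups did not overlap (log2 difference 2.78, SE 0.648, limma adjusted p = 0.101), and the difference was 2.12 without vehicle replicate 3. Rxra, the partner of the liver X receptors and of PPAR-alpha, had 734, 1926 and 784 with ginkgetin, against 304, 295 and 257 with vehicle. It did not overlap either and varied little among the vehicle libraries (1.86, SE 0.370, limma adjusted p = 0.0886), at 1.79 without vehicle replicate 3. Ppara, which drives fatty acid oxidation, lay at 1.47 (SE 0.729), and at 0.56 without vehicle replicate 3. Srebf1, the gene of SREBP-1, was chosen for mention after its values were seen. It had 1057, 599 and 1296 normalized reads with ginkgetin, against 1153, 748 and 501 with vehicle, so its groups overlapped (0.31, SE 0.393, and 0.01 without vehicle replicate 3). Insig1, a target of SREBP also named after its values were seen, had 1719, 10084 and 5830 with ginkgetin, against 4632, 2363 and 503 with vehicle. Its groups overlapped (1.40, SE 0.897, and 0.49 without vehicle replicate 3). The libraries of Insig1 and of Rxra stood in the order of Fads1, Fads2 and Elovl5 in both groups. The vehicle part of that order was also that of Scd, Insig2, Srebf1 and the median hepatocyte marker level. Among the vehicle libraries Rxra ran only from 257 to 304. How many of all genes stood in the order was not counted.

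Of the 6 partners of the elongation cycle, 5 had higher means, and 4 without vehicle replicate 3. Hsd17b12, the ketoacyl-CoA reductase of the cycle, had 936, 2190 and 1695 normalized reads with ginkgetin, against 1085, 590 and 670 with vehicle (log2 difference 1.0, SE 0.381, and 0.92 without vehicle replicate 3). Its groups overlapped through ginkgetin replicate 1. Tecr, the enoyl-CoA reductase of the cycle, lay at 0.76 (SE 0.401), and at 0.35 without vehicle replicate 3. Hacd4, a dehydratase paralog, had 2.21, 10.4 and 4.95 with ginkgetin, against 34.4, 34.9 and 160 with vehicle (-3.29, SE 0.777, limma adjusted p = 0.101), so the groups did not overlap and vehicle replicate 3 was again the highest. Without that library its difference was -2.57. The paralogs, named after their values were seen, lay at 0.18 (Hacd1), 0.80 (Hacd2) and 0.37 (Hacd3), and without vehicle replicate 3 at 0.05, 0.33 and -0.17, so Hacd3 changed sign.

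Among the electron donors of desaturases, cytochrome b5 and its reductases, Cyb5r2 had 8.84, 6.94 and 2.47 normalized reads with ginkgetin, against 29.7, 27.4 and 47.3 with vehicle (log2 difference -2.43, SE 0.605). Its groups did not overlap, and the difference was -2.19 without vehicle replicate 3. Cyb5r1 lay at -0.99 (SE 0.405), and at -0.63 without vehicle replicate 3. Cyb5b, the outer mitochondrial membrane form of cytochrome b5, lay at 0.65 (SE 0.232), and at 0.66 without it. Cyb5a, the form of the endoplasmic reticulum, named after its values were seen, was at 0.90 (SE 0.672), and at 0.20 without vehicle replicate 3. For the 5 genes the limma adjusted p ran from 0.109 to 0.467.

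In the supply of substrate, 7 of 8 genes had higher means, at a median log2 difference of 0.61 and 0.34 without vehicle replicate 3. Acss2, which makes acetyl-CoA from acetate, lay at 0.75 (SE 0.265), Acly, which makes it from citrate, at 0.59 (SE 0.248), and Mlycd, which breaks malonyl-CoA down, at 0.72 (SE 0.386). Acss2 lay at 0.74, Acly at 0.57 and Mlycd at 0.35 without vehicle replicate 3. Fasn, fatty acid synthase, named after its values were seen, had 558, 629 and 684 normalized reads with ginkgetin, against 568, 670 and 620 with vehicle. Its groups overlapped, at 0.01 (SE 0.206), and at 0.01 without vehicle replicate 3. The limma adjusted p of the list ran from 0.180 to 0.986.

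Of 10 genes that esterify or activate the products, 8 had higher means. Soat2, which makes cholesteryl esters, lay at 1.44 (SE 0.486), Dgat2, which makes triglycerides, at 1.52 (SE 0.550), and Lpcat3, which puts polyunsaturated acids into phospholipids, at 0.67 (SE 0.258). Of 4 peroxisomal genes of the last step of docosahexaenoic acid synthesis, 3 had higher means. Among them Hsd17b4 lay at 1.15 (SE 0.504) and Abcd3, a peroxisomal transporter, at 1.04 (SE 0.463). Abcd2, another transporter of the peroxisome, had 1.11, 0 and 2.47 normalized reads with ginkgetin, against 0, 44.9 and 22.1 with vehicle. Its groups overlapped at few reads (-2.39, SE 1.38, and -1.80 without vehicle replicate 3). Leaving out vehicle replicate 3, Soat2 lay at 0.84, Dgat2 at 0.94, Lpcat3 at 0.57, Hsd17b4 at 0.73 and Abcd3 at 0.56. The smallest limma adjusted p was 0.173 for the genes that use the products and 0.248 for the peroxisomal genes.

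Desaturases and elongases outside the list behaved in other ways. Degs2, a sphingolipid desaturase and hydroxylase, had 8.84, 4.63 and 0 normalized reads with ginkgetin, against 23.7, 23.3 and 35.6 with vehicle (log2 difference -2.88, SE 0.881, and -2.68 without vehicle replicate 3). Its groups did not overlap, at few reads, and vehicle replicate 3 was the highest library, as it was for Hacd4 and Cyb5r2. Elovl7, an elongase of long saturated chains, was also low, with at most 7.74 with ginkgetin and 19.0 with vehicle (-1.96, SE 0.891, and -2.25 without vehicle replicate 3). Fads6, a desaturase of the same family, lay at 1.08 (SE 0.891) over all libraries and at -0.10 without vehicle replicate 3, which had 92.1 normalized reads against 898 and 1302 in vehicle replicates 1 and 2. Degs1, the main ceramide-forming desaturase, lay at 0.20 (SE 0.273) and changed sign to -0.07 without vehicle replicate 3. Elovl4 and Scd4 had at most 1 or 2 reads in 1 library and were not tested, and Degs1, Elovl4 and Scd4 were named after their values were seen.

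**Figure D4:**
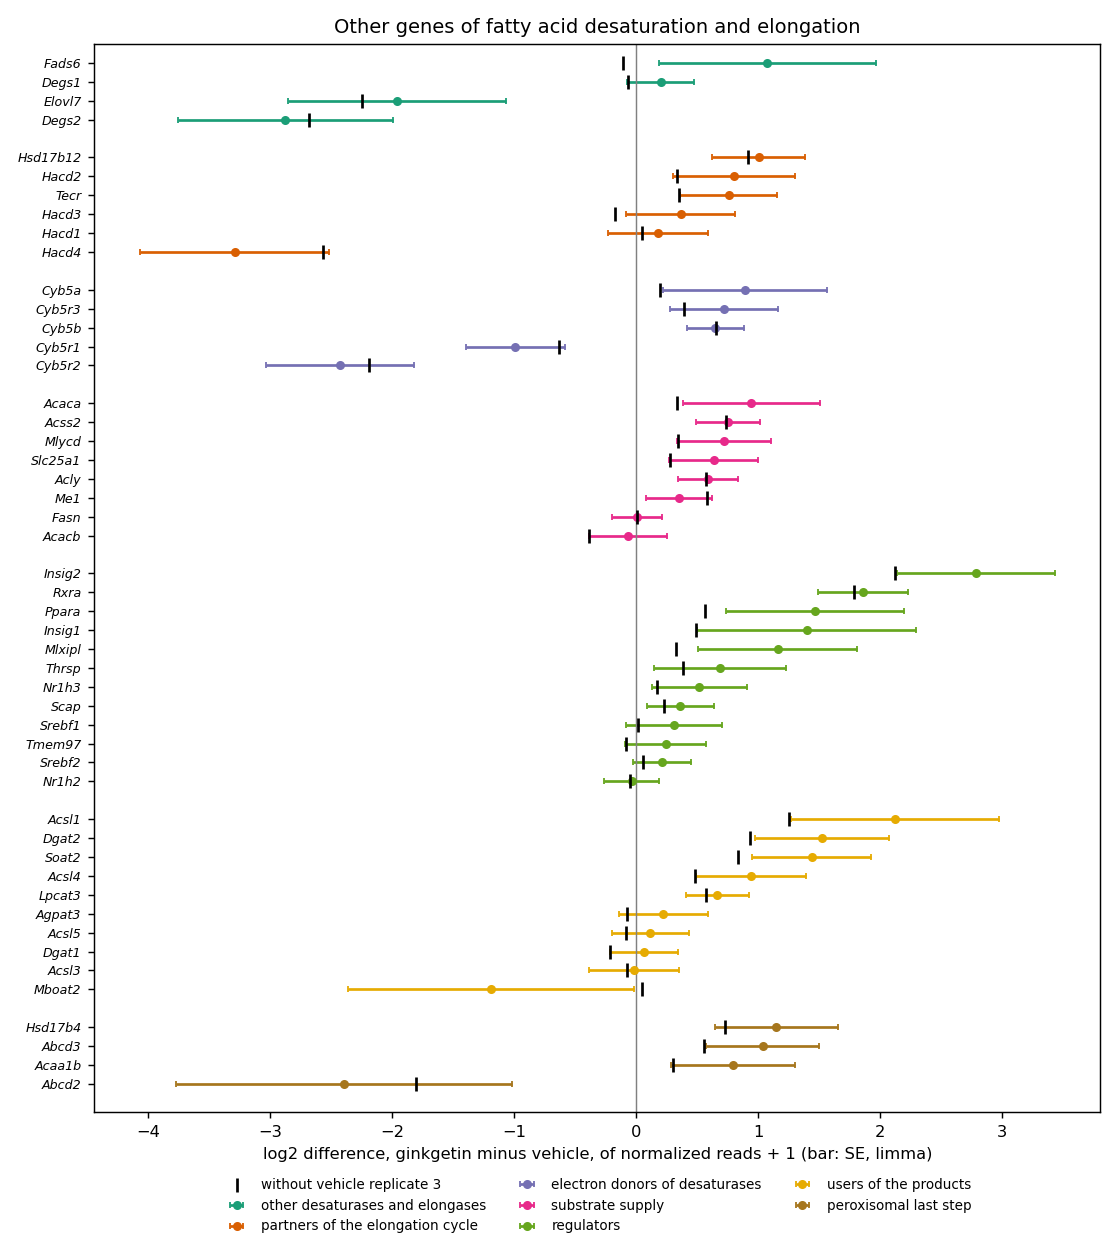
Log2 differences, ginkgetin minus vehicle, of the 49 tested genes in 7 lists of the pathway; circles are values over all 6 libraries with SE from limma, and black ticks are values without vehicle replicate 3. Insig2 (2.78) lies farthest to the right and Hacd4 (-3.29) farthest to the left.

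Likeness to other genes was measured as Pearson's r of log2(value + 1) over the 6 libraries, as a description with no test, among 6848 genes with a mean above the median; libraries share depth and vehicle replicate 3 weighs on every r. Closest to Fads1 were Cul4a (r = 0.999), a ubiquitin ligase scaffold, Tfam (0.998), the mitochondrial transcription factor, and Slc25a39 (0.995), a mitochondrial carrier, although Cul4a differed by 0.74 log2 units where Fads1 differed by 2.06. Closest to Fads2 were Ttpa (0.998), the vitamin E transfer protein of liver, Ccdc47 (0.997) and Stbd1 (0.994). Ttpa had 1025, 3230 and 2192 normalized reads with ginkgetin, against 737, 560 and 136 with vehicle, so it came close to Fads2 in size as well. Closest to Elovl2 were Upb1 (0.985), a pyrimidine catabolism enzyme, Sde2 (0.984) and Slc27a5 (0.982), the bile acid-CoA ligase. Closest to Elovl5 were Kdm5c (0.997), Slc30a5 (0.996) and Msra (0.996), and closest to Scd were Mpdu1 (0.988), Smim24 (0.981) and Ogfod3 (0.979). For Scd2 they were Arhgef2 (0.999), Fhl1 (0.997) and Pkig (0.996), for Fads3 Crnkl1 (0.956), Gadd45b (0.950) and Flii (0.933), and for Elovl1 Hp1bp3 (0.969), Lrrc45 (0.967) and Gnas (0.965).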

How the data were processed

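RNA from 6 rat liver samples was measured, with mRNA libraries prepared by a SMARTER kit, per the labels' protocols. Reads were mapped to mRatBN7.2, per the submitters' processing notes. Aligner, counter, annotation and strandedness (not given in the sources used here) could move reads between paralogs. The deposited values are a signal, reads per gene divided by 1 factor per library by the authors, since 99.67% of values are whole multiples (within 0.02) of each library's smallest value; 53 of 16209 rows were not and were rounded.

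Groups were tested across the 14639 genes that reached 1 in any 3 libraries, with limma 3.58.1 (R 4.3.3, trend and robust) on log2(value + 1) and Benjamini-Hochberg adjustment at 0.05; edgeR 4.0.16 and DESeq2 1.42.0 were run on recovered reads. The procedure was tested on simulated data. There limma called 2.04%, 36% and 85.1% of genes with a true log2 difference of 1, 2 and 3, and 2 of 14288 unchanged genes. The simulated libraries shared 1 mean profile and 1 dispersion (0.184), so none stood apart as vehicle replicate 3 did. No libraries were duplicates (chi-square per degree of freedom at least 42.7). Members and lists were chosen with earlier results of these data known. Named genes were all members, up to 3 per pathway list with the smallest p, and 3 per member most alike, among genes whose name is a symbol in RefSeq other than a locus number; other pathway genes were named after their values were seen. Of the rows, 14544 names, and all 8 members, matched a symbol of RefSeq on GRCr8. Promoters are from RefSeq, cut to 250 bases; protein features were not run. Some genes of the pathway lists are not reported here. Alternatives were pseudocounts of 0.5 and 5, no filter, quantile scaling, equal totals, hepatocyte centring, a replicate block and each library left out. P-values set the difference between groups against the spread between samples within groups, which may be technical. The labels' replicate numbers did not pair the libraries.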

Additional observations from a re-analysis of the deposited data

How the results depend on the processing

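Fads1, Fads2, Scd, Elovl2 and Elovl5 stayed above 0 and Fads3 and Scd2 below 0 in all 18 alternatives run, 3 of which (edgeR, DESeq2 and hepatocyte centring, each without vehicle replicate 3) were chosen after the data were seen; Elovl1 turned negative in 10. Fads1 ran from 0.80 to 2.41, Fads2 from 1.46 to 3.22, Elovl2 from 0.24 to 1.88, Elovl5 from 0.05 to 1.90, Scd from 0.08 to 3.10 and Scd2 from -3.48 to -1.32. The median over the 8 genes was 0.14 relative to hepatocyte markers, 0.31 relative to them without vehicle replicate 3, and 0.55 to 1.67 with 1 library left out (0.55 without vehicle replicate 3, 0.83 without ginkgetin replicate 3). Equal library totals moved the median of all genes by -0.50 and hepatocyte centring by -1.26. Without vehicle replicate 3 Fads6 reversed to -0.10 in limma (1.80 without vehicle replicate 2) and to -0.05 in edgeR and -0.05 in DESeq2.

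Genes past the threshold numbered 2, but 5 with a pseudocount of 5, 1 with quantile scaling, 94 with equal library totals, 0 with the replicate block, 0 with edgeR and 1375 with DESeq2, and 0 to 696 with 1 library left out (696 without vehicle replicate 1, 84 without vehicle replicate 3). Without vehicle replicate 3 edgeR called 199 and DESeq2 735. The cause was not tested. With the replicate block 2382 genes had an unadjusted p under 0.05, and Fads1 and Fads2 had adjusted p of 0.212. Same-numbered libraries correlated at -0.16, 0.03 and -0.21 in their deviations from group means, and not every library correlated best with its own number, so the numbers were not taken as pairs.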
